A study of Homo sapiens with 6 samples.

Results

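Highly methylated CpGs in stretches with few sequenced CpGs were followed in PC-3 cells, an androgen-independent human prostate carcinoma line, by bisulfite sequencing of genomic DNA. SAM libraries (3) came from cells given 160 µM S-adenosylmethionine for 5 days, and control libraries (3) from cells given PBS for 5 days. The labels do not say whether replicates were separate cultures, so the spread between libraries may be technical. A CpG was a member when it lay on an autosome, had at least 10 reads in each of the 6 libraries with both strands summed, had a mean methylation over the 6 libraries above 80%, and lay in a window of 1000 bases (counted from position 1, hg19) that held 1 to 4 CpGs listed in any library. These rules gave 19432 members in 10035 windows. They are 5.77% of the 336571 CpGs of the series with 10 reads in all libraries (called common CpGs here) and 63.4% of the 30650 autosomal common CpGs in windows with 1 to 4 listed CpGs. The members were thus chosen by their methylation over all 6 libraries, so their level is a description and is given without a test. Positions are given without genes, because no annotation of hg19 was used here.

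S-adenosylmethionine is the methyl donor of the DNA methyltransferases, which copy and set 5-methylcytosine at CpG dinucleotides. In human cells most CpGs outside CpG islands are methylated, and CpGs of islands at active or poised promoters mostly are not. Methylated cytosines tend to be lost by deamination over evolution, which is why methylated DNA is poor in CpGs. Cancer cells often lose methylation over large CpG-poor domains and keep it in other parts of the genome.

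Most members were close to fully methylated. Their mean level over the 6 libraries had a median of 97.3%, with quartiles at 94.6% and 98.6%, and 14110 members (72.6%) lay above 95%. Every library was at 80% or more in 16368 members (84.2%), and 1053 members (5.42%) had no unmethylated read in any library. At the threshold, the 3 members just inside (27334128 on chromosome 15, 134403555 on chromosome 5 and 17087036 on chromosome 1) had mean levels of 80.0049, 80.0112 and 80.0146%. The 3 autosomal CpGs of sparse windows just outside (34781711 on chromosome 15, 115991973 on chromosome 7 and 41706664 on chromosome 17) had 79.9992, 79.9941 and 79.9801%.

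Few listed CpGs in a window did not mean isolated CpGs. The nearest listed CpG lay at a median of 15 bases from a member, with quartiles at 7 and 29 bases, and at 50 bases or less for 17065 members (87.8%). For highly methylated CpGs of dense windows, those with 40 or more listed CpGs, that median was 4 bases. Most members thus had a listed CpG close by, while 6.21% had none within 1000 bases. CpGs listed in no library do not count in a window's density, so how sparse in CpGs the genome is there was not measured. Members were read mostly on 1 strand, with 9352 on the plus strand only, 8964 on the minus strand only and 1116 (5.74%) on both.

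**Figure D1:**
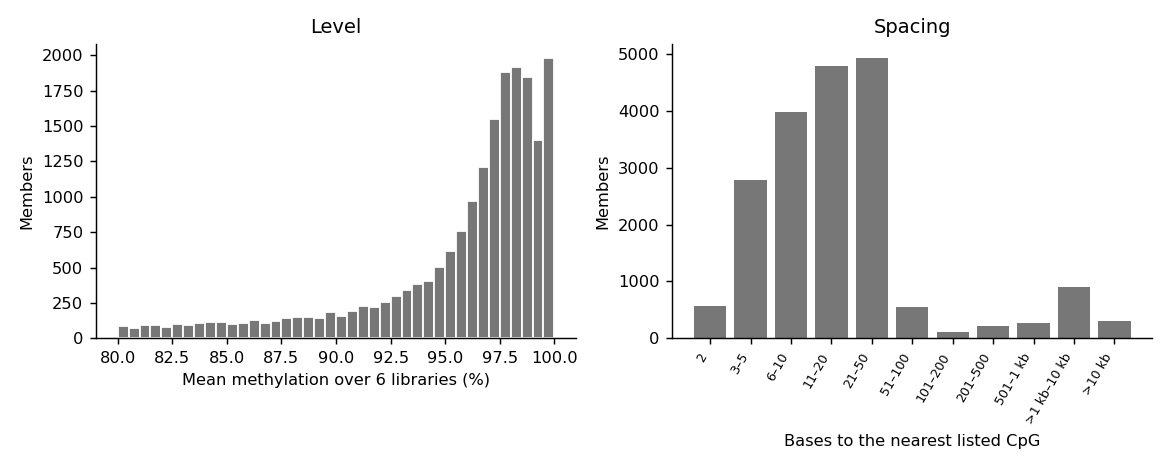
Members counted by mean methylation over the 6 libraries (left, bins of 0.5 percentage points) and by bases to the nearest listed CpG of either side (right, bins of unequal width). Most members lie above 95%, and 17065 of 19432 have a listed CpG within 50 bases.

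The immediate surroundings of the members were highly methylated and the wider ones were mixed. The other common CpGs of the same window, which 16630 members had, stood at a median of 96.8% (quartiles 90.9% and 98.2%). Within 10 kb the median was 91.8% (quartiles 63.1% and 97.4%), and within 100 kb it was 47.0% (quartiles 28.2% and 70.4%). Highly methylated CpGs of dense windows had neighbours at medians of 91.6% in the same window, 79.1% within 10 kb and 60.2% within 100 kb. CpGs under 20% in sparse windows (4899 on the autosomes) had neighbours at medians of 4.97%, 19.8% and 37.2% over the same reaches. Of the 10035 windows with a member, 375 also held a common CpG under 20%. Every common CpG was a member in 7970 of the windows. In the 2658 windows with 3 or more members, the levels of the members had an SD of 3.70 percentage points in all and of 2.63 points around their window's mean.

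**Figure D2:**
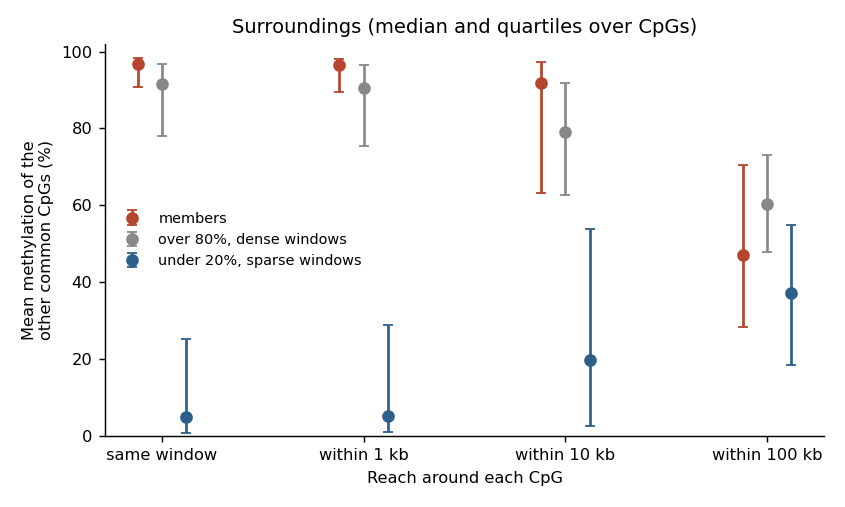
Mean methylation of the other common CpGs around each CpG (y axis, percent), in the same window and within 1, 10 and 100 kb, for the members, for CpGs over 80% in windows with 40 or more listed CpGs, and for CpGs under 20% in sparse windows. Points are medians over CpGs and bars the quartiles; the members' median is 96.8% in the same window and 47.0% within 100 kb.

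Members lay at varied distances from dense windows, which were not compared with those of other CpGs. The nearest of the 6513 windows with 40 or more listed CpGs, whatever their methylation, was at a median of 67 windows of 1 kb (quartiles 23 and 178), and 7579 members lay over 100 windows away.

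Depth differed between the libraries by more than the groups did. SAM replicates 1 to 3 had medians of 124, 32 and 112 reads per member, and control replicates 1 to 3 had 153, 31 and 150. SAM replicate 2 and control replicate 2 were the shallow libraries, with 36220663 and 33056018 reads over listed positions, and the other libraries held 120492978 to 183523792. Members took 4.55% ± 0.867 of the reads over common CpGs with SAM and 5.57% ± 0.741 in controls (SD over 3 libraries of each group), with overlapping groups. Since amplified copies of a molecule may be among the reads, errors computed from read counts cover counting error only. Read coverage over the members, as the correlation of log2 reads across members, split the libraries into SAM replicates 1 and 2 with control replicates 1 and 3 (r of 0.713 to 0.93) and SAM replicate 3 with control replicate 2 (r = 0.898), against 0.118 to 0.612 between the sets. These are correlations across CpGs of libraries, with no test. SAM replicate 2 lay between, and another division puts it with SAM replicate 3 and control replicate 2. The labels name no batch, and each division holds both treatments.

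The first question was whether the methyl donor moved the level of these already highly methylated CpGs. The mean over all members was 95.92, 96.27 and 95.84% in SAM replicates 1 to 3, against 95.41, 95.49 and 95.30% in control replicates 1 to 3. Every SAM library was above every control library, and SAM replicate 2 was the highest. The group means were 96.0% ± 0.226 (SD, n = 3) for SAM and 95.4% ± 0.0972 (SD, n = 3) for controls, a difference of 0.613 percentage points with a standard error of 0.142. No p is given for this mean, because the members were chosen with earlier results of these data known, and with 3 libraries against 3 an exact permutation test could not go below 0.10. Within the coverage sets the difference was 0.743 points among SAM replicates 1 and 2 and control replicates 1 and 3, and 0.353 points between SAM replicate 3 and control replicate 2. With SAM replicate 2 moved to the other set, it was 0.571 and 0.565 points. Without SAM replicate 2 it was 0.484 points. When 1 SAM and 1 control library chose the members and the other libraries were compared, the difference was 0.463 to 0.659 points over the 9 pairings. Each pairing chose 19337 to 19508 CpGs, close to the 19432 members in number. The compared libraries were part of the same 6, whose groups are already apart over the members. The groups did not overlap in any pairing, but these pairings are not independent and show mainly the size. Weighted by coverage the groups overlapped, at 95.66, 95.98 and 96.01% with SAM and 95.19, 96.10 and 95.13% in controls, and control replicate 2 was the highest of the 6. That weighted difference of 0.408 points was 0.719 without control replicate 2, 0.268 without control replicate 1 and 0.238 without control replicate 3, and -0.0833 between SAM replicate 3 and control replicate 2.

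The same difference was smaller at highly methylated CpGs of denser windows. It was 0.429 points in 35907 CpGs at 5 to 14 listed CpGs per window and 0.261 points in 31729 CpGs at 15 to 39, and in these denser ones it was 0.143 without SAM replicate 2. In the 17897 CpGs of windows with 40 or more, SAM libraries stood at 95.55, 95.85 and 95.39% and control libraries at 95.45, 95.48 and 95.44%, and the groups overlapped (0.144 points, 0.0187 without SAM replicate 2 and 0.246 without SAM replicate 3). The members' mean minus that of the dense-window CpGs, taken within each library, was 0.373, 0.421 and 0.451 points in SAM replicates 1, 2 and 3, against -0.0369, 0.0146 and -0.139 points in control replicates 1, 2 and 3. All 3 SAM libraries had members above dense-window CpGs, and control libraries lay around 0. The group difference in this contrast was 0.469 points with a standard error of 0.0506, and 0.485 and 0.437 points within the coverage sets. It was 0.426 to 0.503 points when each library was left out. Taking both classes from the same library removes only a shift that is equal in both. The members' median reads over those of dense-window CpGs were 0.761, 0.64 and 0.687 with SAM and 0.827, 0.721 and 0.781 in controls, with overlap. Whether this bears on the contrast was not tested. The contrast itself was not tested either, since its size was known in part when the members were chosen. In the sparse windows themselves, CpGs under 20% were at 5.50, 4.81 and 5.38% with SAM and 5.21, 5.56 and 5.29% in controls, and the groups overlapped. The 6319 CpGs of sparse windows at 20 to 80% were at 54.3, 54.0 and 54.5% with SAM and 53.3, 54.4 and 54.4% in controls, again with overlap.

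**Figure D3:**
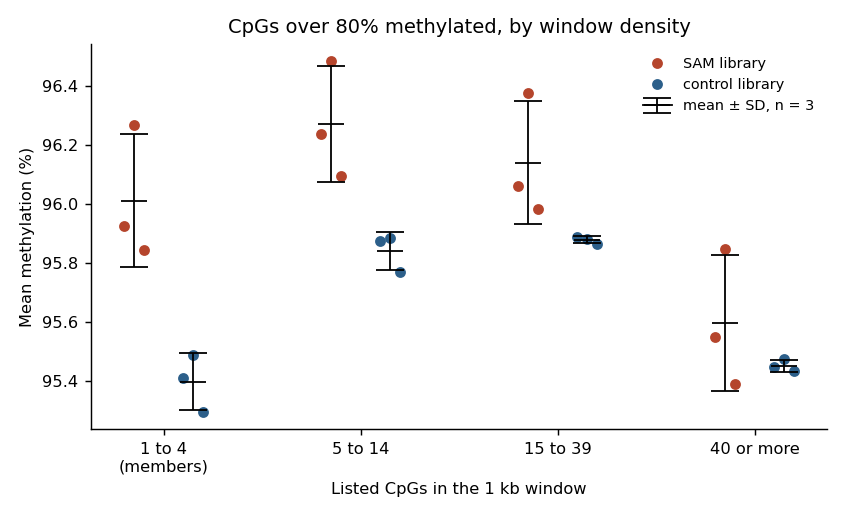
Mean methylation (y axis, percent) of CpGs over 80% by listed CpGs in their 1 kb window, each dot a library, bars the mean ± SD of 3. The 3 SAM libraries of the members sit between 95.84 and 96.27%, above the 3 control libraries at 95.30 to 95.49%, and the groups overlap at 40 or more listed CpGs.

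The groups were apart below 98% and overlapped above it. Divided by mean level over all 6 libraries (bounds set after the data were seen), the 1360 members over 85 to 90% were at 88.2, 88.3 and 88.7% with SAM and 86.9, 87.6 and 86.6% in controls, a difference of 1.41 points (standard error 0.327). The 3001 members over 90 to 95% differed by 1.14 points and the 6978 members over 95 to 98% by 0.762 points, again without overlap. The 961 members over 80 to 85% differed by 0.995 points, with the lowest SAM library at 82.59% and the highest control library at 82.56%. Over 98% and more than 0.5 points below full methylation, 5152 members were at 98.6, 99.3 and 98.3% with SAM and 98.4, 98.98 and 98.6% in controls. Their difference was 0.0663 points, and -0.244 points without SAM replicate 2. SAM replicate 2 was the highest and SAM replicate 3 the lowest of the libraries in that range, while SAM replicate 3 was the highest at 80 to 95%. The 1980 members nearest to full methylation differed by -0.0191 points, which was 0.0624 without SAM replicate 3 and -0.0834 without SAM replicate 2. Of these, 1053 were at 100% in every library and could show no difference.

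By listed CpGs in the window, members alone in theirs had the largest difference of the 4 classes, which was not tested against the others. The 1815 members in windows with a single listed CpG were at 95.8, 96.1 and 95.4% with SAM and 94.8, 94.7 and 94.7% in controls, a difference of 0.986 points with a standard error of 0.207. Windows with 2, 3 and 4 listed CpGs gave 0.674, 0.521 and 0.555 points. None of the 4 classes had overlapping groups. Among members at 80 to 95%, the 574 alone in their window differed by 1.94 points and the 1696 in windows with 4 by 1.10 points. At 95 to 98% these values were 1.06 and 0.757 points, and at 98 to 100% 0.0615 and -0.00253 points with overlapping groups. Within 20 windows of a dense window, members alone differed by 0.466 points (0.0841 without SAM replicate 2). Those with 2, 3 and 4 listed CpGs differed there by 0.363, 0.442 and 0.253 points. Farther away the 4 classes gave 1.14, 0.756, 0.545 and 0.651 points.

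By distance, the difference was 0.359 points within 20 windows of a dense window and 0.688 points farther away, a contrast that was not tested. Members 1 to 2 windows away (522) were at 95.5, 95.7 and 96.1% with SAM and 95.7, 95.3 and 95.4% in controls, and the groups overlapped, with a difference of 0.262 points that was 0.0825 without SAM replicate 3 and 0.408 without SAM replicate 1. The groups also overlapped at 3 to 5 windows (0.427 points, 0.265 without SAM replicate 2) and at 11 to 20 windows (0.298 points). They did not overlap in the class between, where 1158 members at 6 to 10 windows differed by 0.463 points, nor over all 4441 members within 20 windows. Members over 100 windows away were at 95.5, 95.9 and 95.4% with SAM and 94.9, 94.9 and 94.7% in controls, 0.797 points higher. Members near and far from dense windows were also compared at like level. At 80 to 95% the 4294 members over 20 windows away differed by 1.31 points and the 1028 members within 20 windows by 0.635 points, where the groups overlapped and the difference was 0.333 without SAM replicate 3 and 0.965 without SAM replicate 2. At 95 to 98% the 5422 members over 20 windows away differed by 0.812 points and the 1556 members within 20 windows by 0.587 points, both without overlap. At 98 to 100% neither class was apart, with 0.0526 points in the 5275 far members and 0.0143 points in the 1857 near ones. Leaving out SAM replicate 2 turned these values to -0.192 (far) and -0.221 (near), and leaving out SAM replicate 3 raised them to 0.245 and 0.214. A larger difference far from dense windows was thus seen only below 98%. Over all members, strand and depth made less difference. Members read on the plus strand only differed by 0.623 points, on the minus strand only by 0.594 points and on both by 0.672 points (0.444 without SAM replicate 2), and 4 classes of about equal size by mean reads gave 0.491 to 0.737 points. Within 20 windows of a dense window, these depth classes gave 0.206, 0.310, 0.389 and 0.521 points, from fewest to most reads. The groups overlapped at 0.206 and 0.310 points. Farther away the same classes gave 0.575, 0.854, 0.686 and 0.633 points, all without overlap. Near and far members were thus closest in the class with most reads, which was not tested. The 926 members with 100 reads or more in every library were at 95.4, 95.7 and 95.4% with SAM and 94.91, 94.98 and 94.89% in controls, 0.589 points higher.

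**Figure D4:**
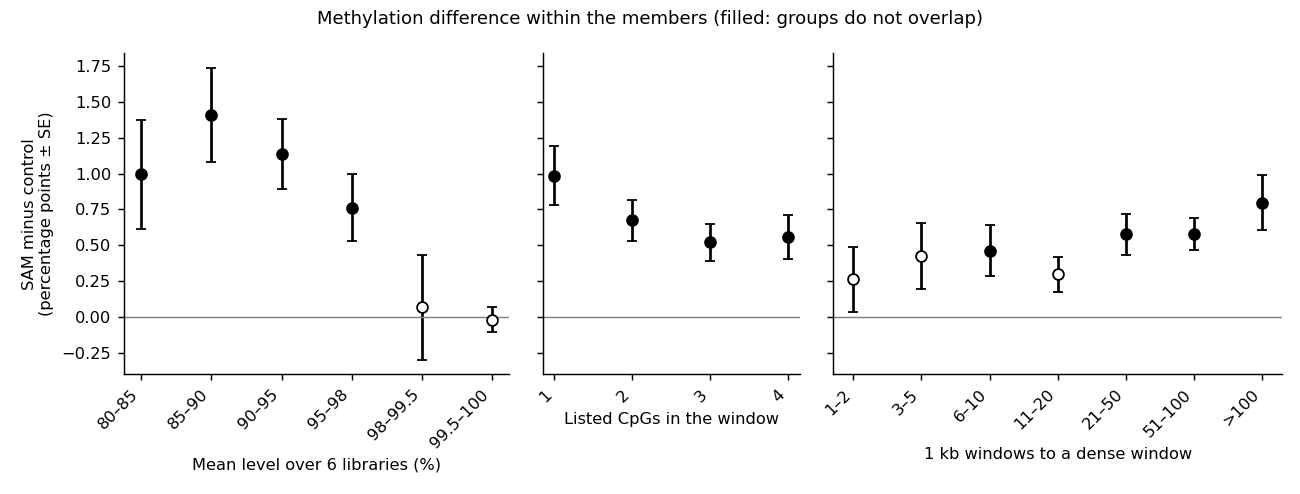
SAM minus control mean methylation (y axis, percentage points, bars the standard error over 3 and 3 libraries) for members divided by mean level, by listed CpGs in the window and by distance in 1 kb windows to the nearest window with 40 or more listed CpGs. Filled points have groups that do not overlap. The difference is 1.41 points at 85 to 90% and 0.797 points over 100 windows from a dense window. It is near 0 above 98%, where the groups overlap.

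The difference was above 0 on all 22 autosomes, from 0.151 points on chromosome 4 to 1.16 points on chromosome 8, with a median of 0.644 points. The groups did not overlap on 16 of them, and all chromosomes share the same 6 libraries. Without SAM replicate 2 it was above 0 on 20, with -0.0559 points on chromosome 4 and -0.00488 points on chromosome 15. That library also moved chromosome 8 (0.766 points without it), chromosome 12 (0.425 against 0.645 points), chromosome 19 (0.303 against 0.551 points) and chromosome 20 (0.0266 against 0.306 points). Without SAM replicate 3 the difference was 0.266 points on chromosome 4, 0.312 on chromosome 15 and 0.493 on chromosome 20. Without control replicate 3 it was 0.079 points on chromosome 15, 0.316 on chromosome 7 (0.484 with all libraries) and 0.436 on chromosome 21 (0.79 with all libraries). Without SAM replicate 1 it was 0.243 points on chromosome 4, and without control replicate 2 it was 0.137 on chromosome 20. In the coverage set of SAM replicate 3 and control replicate 2 it was above 0 on 19 chromosomes.

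**Figure D5:**
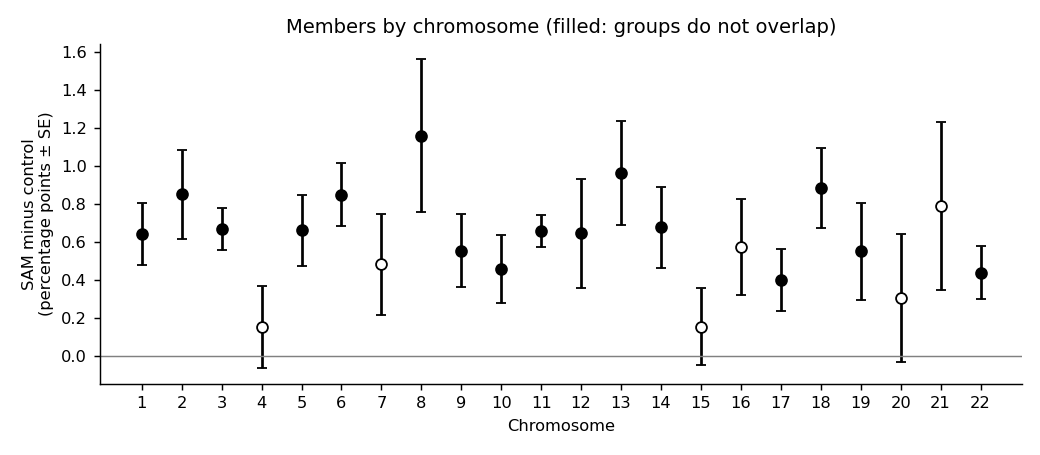
SAM minus control mean methylation of the members (y axis, percentage points, bars the standard error over 3 and 3 libraries) on each autosome. All 22 points lie above 0, from 0.151 on chromosome 4 to 1.16 on chromosome 8, and filled points (16) have groups that do not overlap.

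To set libraries of unequal depth on 1 number of reads, the chance that 10 reads drawn from a member's reads were all methylated was computed and averaged. It was 74.4, 78.5 and 72.1% in SAM replicates 1 to 3, against 71.7, 71.3 and 72.1% in control replicates 1 to 3. SAM replicate 3 (72.13%) lay next to control replicate 3 (72.07%), a gap far under the spread of the SAM libraries. The difference was 3.28 points with a standard error of 1.86, and 1.54 points without SAM replicate 2. The share of members under 80% was 3.21, 3.92 and 2.53% with SAM and 3.83, 4.31 and 4.37% in controls, with overlap. The share of members at exactly 100% was highest in the shallow libraries, at 58.5% in SAM replicate 2 and 51.4% in control replicate 2 against 29.9 to 35.3% in the deeper libraries.

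The second question was which single members changed. None passed edgeR's quasi-likelihood test with Benjamini-Hochberg adjustment over all common CpGs, with 0 of 18379 members tested and 0% called over all 257696 CpGs tested. The 1053 members without an unmethylated read were not tested. At an unadjusted p under 0.05 there were 552 members, beside 2.81% of all CpGs tested. Of these, 326 were higher with SAM (1.77% of the members tested, beside 1.48% of all CpGs) and 226 lower (1.23%, beside 1.33%). Without SAM replicate 2 there were 236 members higher (1.29%, beside 1.52% of all CpGs tested) and 270 lower (1.48%, beside 1.26%), so the members' split turned round and that of all CpGs did not. Limma called 0 members (0% of all CpGs). At an unadjusted p under 0.05 it had 447 members (2.43% of the members tested, beside 2.56% of all CpGs), 177 of them higher (0.963%, beside 1.24%) and 270 lower (1.47%, beside 1.32%), the opposite split. The edgeR likelihood ratio test, which takes less account of uncertainty in the spread between libraries, called 56 members at an adjusted p under 0.05, beside 0.274% of all CpGs. These were 42 higher (0.229%, beside 0.15%) and 14 lower (0.0762%, beside 0.123%).

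Without a test, the groups did not overlap in 1010 members with every SAM library higher (5.20%, beside 2.7% of all common CpGs) and in 366 members with every SAM library lower (1.88%, beside 2.19%). The median size was 4.43 points in the higher and 4.40 points in the lower ones. Other highly methylated CpGs were nearer to the members. At 5 to 14, 15 to 39 and 40 or more listed CpGs, 4.52, 4.07 and 4.02% were higher and 2.31, 2.58 and 3.22% lower. Sparse-window CpGs at 20 to 80% had 5.74% higher and 4.94% lower. SAM replicate 2 had 58.5% of the members at exactly 100%, and its part in the members' count was measured by leaving it out. Without it, 7.20% of members were higher and 6.45% lower, beside 5.44% and 4.73% of all common CpGs. Among the members with 100 reads or more in every library, 116 of 926 were higher and 19 lower (12.5% and 2.05%), beside 4.76% and 3.36% of all common CpGs of that depth. Without SAM replicate 2 those were 152 and 55 (16.4% and 5.94%), beside 8.41% and 6.44% of all common CpGs of that depth. Over the 6 ways to leave out a library the members' shares were 16.4 to 20.7% higher and 4.21 to 5.94% lower, beside 8.41 to 9.22% and 6.32 to 7.10% of all common CpGs of that depth. In these deep members the SD between libraries of a group was 3.49 points with SAM and 3.68 points in controls, as root mean squares, where counting allows 1.01 and 1.11 points.

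The 5 members with the smallest p in edgeR's quasi-likelihood test, each with an adjusted p of 0.89, were fully methylated in 1 group and not in the other, or nearly so. At position 74324472 of chromosome 14 methylation was 100, 100 and 100% with SAM (75 to 1073 reads) and 92.7, 91.6 and 81.5% in controls (189 to 534 reads). At 61819546 on chromosome 20 it was 100% in every SAM library (22 to 281 reads) and 68.2, 79.8 and 82.1% in controls (56 to 148 reads). At 68129716 on chromosome 11 it was 99.1, 100 and 99.6% with SAM and 88.8, 78.7 and 92.7% in controls. These 3 lay in windows with 2 or 3 listed CpGs and their groups did not overlap. At 128807151 on chromosome 11 SAM libraries were at 100% from 14, 34 and 103 reads and controls at 51.7, 66.7 and 70.5%. At 57189600 on chromosome 20 the direction was the opposite, with 62.2, 71.4 and 74.0% with SAM (37, 21 and 246 reads) and 100% in every control library (54, 67 and 62 reads).

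Among members with 100 reads or more in every library, the largest differences came with spread inside a group. At 178549048 on chromosome 5 methylation was 91.8, 98.3 and 86.7% with SAM and 84.5, 70.3 and 75.3% in controls, 15.6 points higher, and the groups did not overlap. At 125334114 on chromosome 12 it was 95.3, 100 and 88.5% with SAM and 49.5, 72.8 and 99.2% in controls, with overlap. Its difference of 20.7 points came to 8.56 points when control replicate 1 was left out and to 33.4 points when control replicate 3 was. At 112021951 on chromosome 3 it was 100, 97.3 and 82.5% with SAM and 72.1, 81.0 and 89.7% in controls, also with overlap (12.4 points, 7.98 without control replicate 1).

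The largest decreases at this depth all became smaller without SAM replicate 2 but stayed below 0. At 144117750 on chromosome 8 methylation was 91.1, 54.5 and 90.5% with SAM and 100, 91.4 and 100% in controls, -18.4 points and -6.35 without that library. At 61267525 on chromosome 11 it was 99.1, 65.7 and 94.6% with SAM and 100, 100 and 99.7% in controls, -13.4 points and -3.04 without it. The groups did not overlap at either position. At 163722208 on chromosome 3 it was 76.1, 58.1 and 88.2% with SAM and 97.6, 85.2 and 79.1% in controls, -13.2 points with overlapping groups, -5.16 without SAM replicate 2, -20.2 without SAM replicate 3 and -8.02 without control replicate 1. The member with the largest spread over the 6 libraries (SD 20.4 points), at 99690952 on chromosome 14, was at 93.0, 67.0 and 84.6% with SAM and 95.1, 100 and 46.8% in controls and the groups overlapped. Its difference was 0.848 points, -16.1 without control replicate 3 and 10.5 without control replicate 2. The next by spread were the chromosome 12 and chromosome 8 positions above (SD 19.7 and 16.9 points).

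In 202 members a library was under 50%. A mean above 80% over the 6 libraries leaves little room for a second such library and needs high levels in the others, so that in 201 of the 202 it was 1 library follows largely from how the members were chosen. SAM replicate 2 was under 50% in 83 members, SAM replicates 1 and 3 in 29 and 2, and control replicates 1 to 3 in 34, 23 and 32. At these members the low library had a median of 21, 21 and 224 reads in SAM replicates 1 to 3, against 124, 32 and 112 over all members. In control replicates 1 to 3 it had 56, 25 and 36 reads, against 153, 31 and 150 over all members.

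The deepest members, chosen after their values were seen, lay 8 bases apart at 60662593 and 60662601 on chromosome 1, with 16770 to 229303 reads per library. The first was at 98.3, 97.9 and 98.2% with SAM and 97.9, 98.03 and 98.6% in controls, and the second at 98.7, 98.7 and 98.9% with SAM and 98.7, 98.9 and 98.6% in controls. The groups overlapped at both, with differences of -0.0554 and 0.0531 points. Whether all reads placed there came from that position was not tested.

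Windows with 3 or more members were compared by the mean of their members. Of 2658 such windows, 1548 had a higher and 1105 a lower mean with SAM, and the median difference was 0.322 points (quartiles -0.749 and 1.58). The groups did not overlap in 217 windows with SAM higher (8.16%, beside 5.21% of all windows with 3 or more common CpGs) and in 75 with SAM lower (2.82%, beside 3.88%). The largest increase was on chromosome 9 from 19867001 to 19868000, where 3 members were at 100, 98.7 and 94.97% with SAM and 71.0, 79.0 and 93.9% in controls, 16.6 points higher without overlap. Next came chromosome 9 from 119976001 to 119977000, with 95, 98.2 and 94.8% with SAM and 87.2, 75.3 and 85.1% in controls. On chromosome 2 from 209313001 to 209314000 the levels were 79.1, 90.9 and 99.2% with SAM and 71.6, 71.4 and 89.8% in controls, with overlap (12.1 points, 7.40 without SAM replicate 3 and 18.2 without control replicate 3). The 3 largest decreases shrank without SAM replicate 2. They were -18.1 points on chromosome 6 from 169587001 to 169588000 (-10.2 without it), -17.0 points on chromosome 18 from 60689001 to 60690000 (-8.13, with overlapping groups when all libraries are used) and -12.3 points on chromosome 3 from 13395001 to 13396000 (-4.11). The groups did not overlap in the chromosome 6 and chromosome 3 windows. In the chromosome 3 window SAM replicate 2 was at 71.4%, the other SAM libraries at 93.3 and 98.4%, and every control library at 100%.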

How the data were processed

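The deposited lists hold 1 row per cytosine and strand with, per the file headers, its coverage (a count of reads) and the percentages of C and T. The lowest coverage was 10 reads. The submitters' processing notes name Bismark 0.7.4, methylKit 0.5.3, CASAVA 1.8.2, FastQC 0.10.0 and hg19, with no role or order. The library type, read filters and removal of duplicates were not stated in the labels or files read here.

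Methylated reads were coverage times percent C, which came out whole, within the rounding of the deposited percentages, for 100% of positions. Minus-strand positions less 1 base were joined to plus-strand ones. Groups came from the sample titles. Single CpGs were tested with edgeR 4.0.16 (R 4.3.3) by its quasi-likelihood test on methylated and unmethylated counts of all common CpGs, leaving out those with 0 of either, with limma 3.58.1 (2 added to each count before the log2 ratio) and edgeR's likelihood ratio test as alternatives. The fits were tested on simulated data with counting noise only and large changes at intermediate levels. That does not show how well they find small changes in highly methylated CpGs. Python 3.11.15, pandas 2.3.3 and scipy 1.17.1 did the rest. A distance in windows is the difference of window numbers. The p-values measure only the spread between these libraries.

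The members, the lists and the tests were chosen with earlier results of these data known. CpGs were named by this rule: the 5 members with the smallest edgeR p when fewer than 5 pass; among members with 100 reads in every library, the 3 largest differences each way and the 3 largest SDs; the 3 CpGs on each side of 80%; and, among windows with 3 or more members, the 3 largest differences each way. Other settings were 20 reads, thresholds of 70% and 90%, windows shifted by 500 bases, density from common CpGs, no CpGs over the 99.9th percentile of coverage, strands apart, coverage weights, the X chromosome added, CpGs listed in 2 libraries of each group, other libraries choosing the members, a replicate block, and each library left out. The values within coverage sets, at 100 reads and by distance were added after the data were seen. No pairing of replicates was found (correlations of deviations for equal numbers were 0.00829, -0.000767 and -0.00907).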

Additional observations from a re-analysis of the deposited data

How the results depend on the processing

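The members' mean difference (0.613 points) stayed above 0, and its groups apart, at 20 reads, thresholds of 70% and 90%, shifted windows and density from common CpGs. The same held with strands apart, without very deep CpGs and with the X chromosome. Without each library it was 0.484 to 0.697 points. Groups that are apart with all libraries must stay apart with 1 left out, so these values show only the size. With coverage weights (0.408 points) the groups overlapped, and the weighted difference was 0.238 to 0.719 points without each library. The unweighted difference moved to 0.353 points between SAM replicate 3 and control replicate 2 and to 0.359 points within 20 windows of a dense window, both settings chosen after the data were seen. The 10-read difference was 1.54 to 4.71 points without each library. The contrast with dense windows moved from 0.469 points to 0.363 points over a level of 90% and to 0.547 points with density from common CpGs, and was 0.426 to 0.503 points without each library. Members with every SAM library higher (5.20%) were 6.45% at 20 reads, 4.72% over a level of 90% and 4.8% with density from common CpGs. At 100 reads, chosen after the data were seen, they were 12.5%, beside 4.76% of all common CpGs of that depth. Without each library they were 7.2 to 12.1%, beside 5.30 to 5.62% of all common CpGs. Those with every SAM library lower (1.88%) were 3.17 to 6.45% without each library, beside 4.35 to 4.93% of all common CpGs, where fewer samples make groups that do not overlap commoner. Members called by edgeR's quasi-likelihood test numbered 0 in every setting run, as with limma, and 56 with its likelihood ratio test. The cause of these moves was otherwise not tested. Equal replicate numbers showed no pairing, and with the replicate block 0 members were called. The mean of the paired differences was 0.613 points, which groups of equal size fix in advance. The least-read library had a median of 20 reads per member, and edgeR's quasi-likelihood test called 0 of the 9620 members tested with 20 reads or more in every library.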
